A study of Mus musculus with 4 samples.

Results

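The insulin-like growth factor (IGF) axis was followed in ventricles of mouse embryos through 10 genes, taken by symbol from the 32285 genes of the deposited count matrices. They were the ligands *Igf1* and *Igf2*, the receptors *Igf1r*, *Igf2r* and *Insr*, and the binding proteins *Igfbp2*, *Igfbp3*, *Igfbp4*, *Igfbp5* and *Igfbp7*. The study used single-cell RNA sequencing at embryonic day 14.5 to ask how loss of the transcription factor *Ets1* in the endothelium bears on growth of the compact myocardium. The control group was *Tie2*Cre;*Ets1* fl/+ (2 libraries) and the *Ets1* endothelial knockout (eKO) group was *Tie2*Cre;*Ets1* fl/fl (2 libraries). Each library pooled the ventricles of 3 embryos of either sex on a C57BL/6 background, with no treatment, and the labels place all 4 libraries in batch 1. Both groups carried the Cre transgene and at least 1 floxed allele, so the controls were themselves heterozygous for the deletion. Cre under *Tie2* control acts in endothelial cells, in endocardium and in the cells that descend from them, and is known to act in blood cells as well, so the deletion was not restricted to 1 vessel type.

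IGF1 and IGF2 are secreted growth factors that signal through the receptor tyrosine kinases encoded by *Igf1r* and *Insr*, upstream of PI3K, AKT and mTOR, and in the embryonic heart they are known as drivers of cardiomyocyte proliferation released by epicardium and endocardium. *Igf2r* encodes the mannose 6-phosphate receptor, which takes up IGF2 for lysosomal breakdown and does not signal as a kinase. The binding proteins hold IGFs outside the cell and either withhold them from the receptors or present them, and secreted proteases such as PAPP-A release the ligand again. IGFBP7 is a distant relative that binds IGFs weakly and is deposited in vessel walls.

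The matrices held 45551 barcodes, of which 41563 were kept, and 30107 of these fell into 1 of 9 classes defined by summed marker genes. The classes are named by their gates: mural endocardial (mEndo, 3531 cells), valve endocardial (vEndo, 533), coronary vascular endothelial (cvEC, 1516), cardiomyocyte (17922), fibroblast (1239), cushion mesenchyme (3385), epicardial (777), immune (682) and *Eln*/*Myh11* (522). Counts of unique molecular identifiers (UMIs) were added up within each library and class and are given as CPM, the depth-scaled unit in which a gene's UMIs are taken relative to all UMIs of that class and library. Library totals ran from 76931208 to 124140739 UMIs, and the second eKO library was the shallowest per barcode (median 5632 UMIs against 8222 to 8630 in the other 3). Any pair of libraries shared 19 to 47 barcodes. Of the marker genes held back to check the gates, those of cardiomyocytes, epicardium and immune cells were all highest in their own class, while *Fabp5* of the cvEC list, *Gata6* of the mEndo list and *Foxc1* of the vEndo list were highest in another class. Of the mesenchyme check genes, *Pdgfra*, *Vcan* and *Col5a1* were highest in cushion mesenchyme or fibroblasts and *Fn1* in mEndo. None of the 3 check genes for mural cells (*Pdgfrb*, *Mcam*, *Kcnj8*) was highest in the *Eln*/*Myh11* class, which is therefore called by its gating genes. That class held 152 and 332 cells in the controls but 20 and 18 in the eKO libraries, and was not compared between groups.

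*Ets1* itself was the check of the deletion. In mEndo-gated cells it stood at 272 and 247 CPM in the control libraries and at 120 and 92.0 in the eKO libraries. In cvEC-gated cells it stood at 371 and 325 against 181 and 125, and in vEndo-gated cells at 258 and 261 against 98.9 and 105. Every eKO library lay below both controls in these 3 classes, and the edgeR quasi-likelihood test called *Ets1* lower in each, by 1.25 on the log2 scale in mEndo (SE 0.15, adjusted p = 0.00236), 1.32 in vEndo (SE 0.17, adjusted p = 0.0016) and 1.11 in cvEC (SE 0.18, adjusted p = 0.0212). The vEndo call was lost under the stricter gate (-1.31, adjusted p = 0.0705). The 3′ tags counted here may lie outside the deleted part of the gene, so the level left in the eKO libraries does not measure how many cells escaped Cre. The p-values here and below rest on 2 libraries in each group. In cardiomyocyte-gated cells *Ets1* was low, at 6.60, 6.72, 9.16 and 9.07.

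The 2 binding protein genes on which the comparison of genotypes turned were *Igfbp3* and *Igfbp7*, and the 250 bases upstream of their starts are shown here because ETS factors bind sites with a GGAA core. Sequences are from RefSeq on GRCm38.p6, read 5′ to 3′ on the gene's own strand, with each GGAA or its reverse complement TTCC in capitals. The *Igfbp3* window is chr11:7213924-7214173 (minus strand) and the *Igfbp7* window chr5:77408046-77408295 (minus strand).
Igfbp3: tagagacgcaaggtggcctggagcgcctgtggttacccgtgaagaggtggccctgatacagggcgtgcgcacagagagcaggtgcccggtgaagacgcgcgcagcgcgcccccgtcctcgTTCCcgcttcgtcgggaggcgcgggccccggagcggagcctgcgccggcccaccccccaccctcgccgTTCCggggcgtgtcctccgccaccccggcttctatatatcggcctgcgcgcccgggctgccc
Igfbp7: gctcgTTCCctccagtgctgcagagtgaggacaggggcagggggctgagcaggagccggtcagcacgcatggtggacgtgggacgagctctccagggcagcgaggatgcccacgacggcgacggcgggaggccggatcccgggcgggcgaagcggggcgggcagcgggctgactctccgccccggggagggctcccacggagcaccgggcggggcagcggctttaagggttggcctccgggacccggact
The *Igfbp3* window held 2 such cores, of which 1 was part of the longer CCGGAA (as TTCCGG), and no CAGGAA. The *Igfbp7* window held 1 core and neither longer motif. Searched the same way on both strands, 93.4% of 32851 upstream windows of this length held GGAA at least once, with a median of 3 matches, 12.0% held CCGGAA and 25.7% held CAGGAA. Both longer motifs include the GGAA core, so these counts overlap. A match is a description of the letters and not of a bound site. The table of upstream sequences held all members except *Insr*.

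Where each gene was transcribed differed more between cell classes than between genotypes, and the ligands are described first. *Igf2*, the embryonic growth factor expressed from the paternal allele, was highest in endocardium. In mEndo-gated cells it stood at 1864 and 1616 CPM in the controls and 1778 and 1559 in the eKO libraries (mean 1704 ± 141, SD, n = 4). In vEndo-gated cells the 4 values were 1607, 1474, 1254 and 1344. All 4 libraries had more *Igf2* in mEndo than in vEndo, although the ranges overlapped, and the difference in level was called at 0.28 on the log2 scale (SE 0.07, edgeR adjusted p = 0.00615). It was not called without eKO replicate 1 (0.21, adjusted p = 0.0677) or under the stricter gate (0.12, adjusted p = 0.21). The next level was that of the *Eln*/*Myh11* class (977 ± 147) and of epicardial-gated cells (890 ± 64.3), which changed places between libraries. Cushion mesenchyme (600 ± 51.0), fibroblast (571 ± 53.7) and cvEC (500 ± 101) followed with overlapping ranges, cardiomyocytes came lower (329 ± 34.99), and immune cells were lowest (28.4 ± 7.35), apart from all others.

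In single cells thinned to 2000 UMIs each, *Igf2* was detected in 92.7% to 94.6% of mEndo-gated cells across libraries and in 42.4% to 50.4% of cardiomyocyte-gated cells. Immune-gated cells, taken here as the background because they had the lowest level, had an *Igf2* UMI in 3.89% to 7.36% of cells. The median depths before thinning were 4430 to 7512 UMIs in mEndo-gated, 8220 to 13409 in cardiomyocyte-gated and 3968 to 6871 in immune-gated cells, and thinning left out no gated cell because every gate already required 2000 UMIs.

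*Igf1*, the other ligand, had a broader pattern, in which the leading classes could not be put in order. The *Eln*/*Myh11* (340 ± 77.6), vEndo (338 ± 58.8) and cushion mesenchyme (332 ± 72.6) classes changed places between libraries. The mEndo class (262 ± 16.7) and the immune class (223 ± 86.5) came next with overlapping ranges, and the cvEC class followed apart from them (101 ± 12.96). Cardiomyocytes had the lowest *Igf1* (18.4 ± 2.08), below every other class in every library. The *Igf1* level in mEndo was called lower than in vEndo, by 0.35 on the log2 scale (SE 0.10, edgeR adjusted p = 0.0182), the opposite sign to *Igf2* in the same comparison. This call was lost without control replicate 1 (-0.24, adjusted p = 0.103) or control replicate 2 (-0.29, adjusted p = 0.103), with DESeq2 (adjusted p = 0.0678) and under the stricter gate (adjusted p = 0.226).

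Among the receptors, *Igf2r* was the one with a sharp endocardial peak. It stood at 1086, 1093, 1036 and 897 in mEndo-gated cells (mean 1028 ± 91.0) and at 905, 836, 997 and 817 in vEndo-gated cells. Both classes lay apart from cardiomyocytes (519 ± 43.9), and the cvEC class (201 ± 15.7) was lower than every class but the immune cells (17.0 ± 7.74). The difference in level between mEndo and cvEC was 2.18 on the log2 scale (SE 0.06, edgeR adjusted p = 1.11e-11). The antisense gene *Airn* overlaps *Igf2r*. Whether the counting used the strand is not given in the sources used here, so reads of the 2 genes may not be fully separated. The same limit holds for *Igf1* with its antisense gene *Igf1os*, *Igf2* with *Igf2os* and *Insr* with *Gm16180*. *Airn* was also the gene whose pattern over the 9 class means was most like that of *Igf2r* (Pearson r = 0.987 across 9 classes that share 4 libraries, given as a description).

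The signalling receptors had flatter patterns. *Igf1r* ran from 329 ± 53.9 in epicardial-gated cells over 283 ± 62.3 in cardiomyocytes, 277 ± 103 in the *Eln*/*Myh11* class, 266 ± 52.3 in fibroblasts, 244 ± 72.4 in vEndo, 206 ± 46.0 in cushion mesenchyme and 161 ± 36.3 in mEndo to 147 ± 29.7 in cvEC. Each of these neighbours overlapped in range, and only the immune class (61.9 ± 15.6) lay apart. *Insr*, which encodes the insulin receptor and in the embryo also binds IGF2, ran from 95.6 ± 14.3 in cardiomyocytes to 29.1 ± 11.3 in cvEC, again with overlapping neighbours throughout. Among the non-immune classes, cvEC had the lowest mean of all 3 receptors.

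The binding proteins divided the classes most sharply. *Igfbp3* was a gene of coronary vessels: it stood at 390 and 329 CPM in the controls and 194 and 201 in the eKO libraries of cvEC-gated cells, whereas the next class, epicardial-gated cells, reached 15.4 to 42.5. Cardiomyocytes, with 12 to 30 UMIs in all, stood at 0.309 to 0.414 CPM. *Igfbp2* was shared by 2 classes, cvEC (49.5 ± 13.5) and cardiomyocytes (44.0 ± 12.7), whose order changed between libraries. Cardiomyocytes lay apart from the 7 classes with lower means, while the cvEC range (29.2 to 56.6) overlapped that of the *Eln*/*Myh11* class (5.63 to 33.6). In vEndo-gated cells *Igfbp2* had 0, 3, 3 and 0 UMIs, which is at or below the 3 counts that a count of 0 allows.

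*Igfbp4* and *Igfbp5*, known substrates of PAPP-A, were both highest in mEndo-gated cells. *Igfbp4* stood there at 877, 846, 844 and 1018, apart from cvEC (539 ± 37.1), which in turn was apart from vEndo (319 ± 38.2). *Igfbp5* stood at 1895, 1861, 1552 and 1143 in mEndo, apart from vEndo (672 ± 81.5) and epicardial-gated cells (568 ± 224). In cardiomyocytes *Igfbp4* stood at 7.95 ± 2.27 and *Igfbp5* at 105 ± 22.6. *Igfbp7* had the reverse distribution to *Igfbp5* within the endocardium, since it stood at 80.9 to 141 in vEndo-gated cells and only at 2.35 to 5.86 in mEndo-gated cells, and had its highest means in cushion mesenchyme (268 ± 54.0) and the *Eln*/*Myh11* class (226 ± 78.8), whose ranges overlapped.

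**Figure D1:**
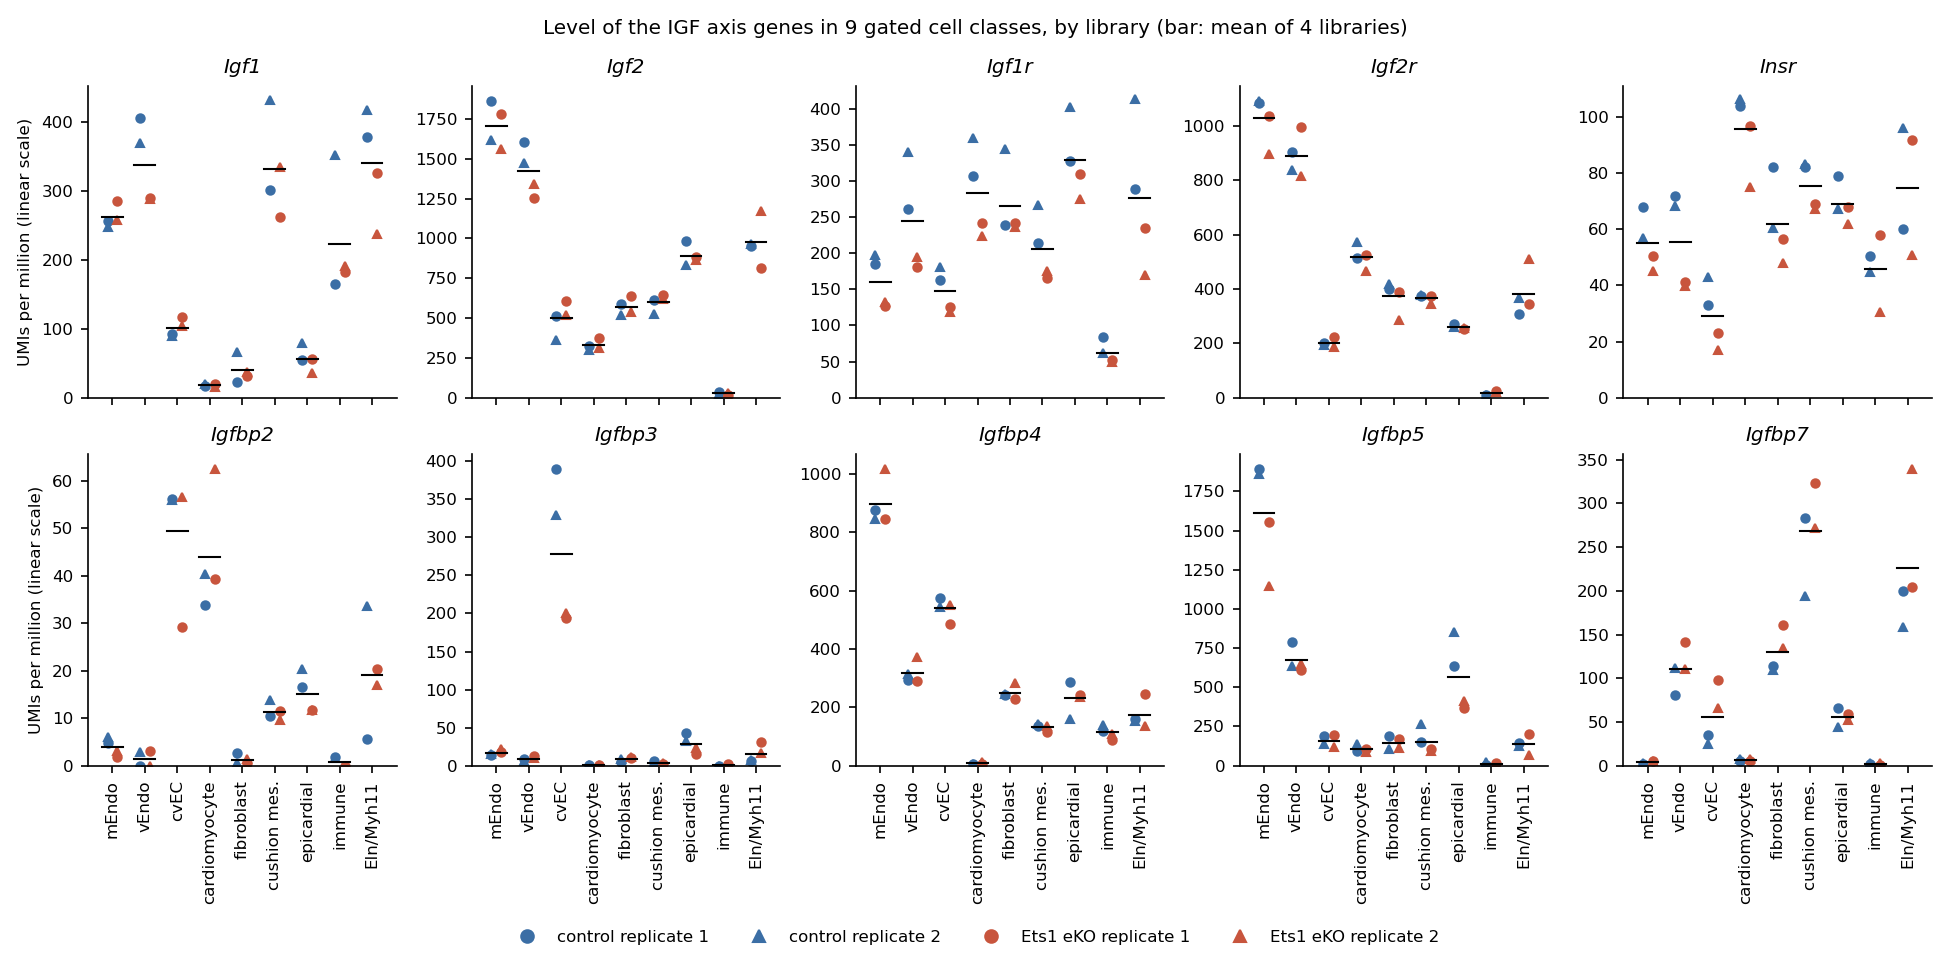
Level of each of the 10 genes (y axis, CPM, linear scale with its own range in each panel) in 9 gated classes (x axis); points are the 4 libraries, blue for control and red for eKO with the replicate given by shape, and bars are means of 4 libraries. *Igfbp3* stands out in cvEC, *Igfbp5* (mean 1613) and *Igf2* (mean 1704) in mEndo, and the blue and red points of *Igf1r* separate in most classes.

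The 4 comparisons of level between classes were tested across all genes. Between mEndo and cvEC, 9 of the 10 genes were called, in a comparison in which 67.2% of 12276 genes were called: *Igf1* (1.21 on the log2 scale), *Igf2* (1.61), *Igf2r*, *Insr* (0.80), *Igfbp4* (0.56) and *Igfbp5* (3.17) were higher in mEndo and *Igfbp2* (-3.86), *Igfbp3* (-4.13) and *Igfbp7* (-3.94) higher in cvEC. *Igf1r* was not called (-0.05, SE 0.06, adjusted p = 0.436), and its estimate changed sign, to 0.12, when libraries were scaled by their totals, a scaling that moved the median of all genes from 0.04 to 0.21. Between mEndo and vEndo, 8 of the 10 were called against 31.1% of 11628 genes (14.8% higher and 16.2% lower in mEndo), with *Igfbp7* 4.77 lower and *Igfbp4* 1.51 and *Igfbp5* 1.26 higher in mEndo. Under the stricter gate the *Igfbp7* difference was -6.12 against vEndo and -5.10 against cvEC. *Igf2r* was called there at 0.23 (SE 0.07, adjusted p = 0.0238), but not with DESeq2 (adjusted p = 0.0603) or without control replicate 2 (0.15, adjusted p = 0.234), and the estimate was -0.025 under the stricter gate. *Igfbp3*, called at 0.89 (adjusted p = 0.00739), was not called with DESeq2 (adjusted p = 0.0657) or without control replicate 2 (0.76, adjusted p = 0.0503), and was 2.69 under the stricter gate.

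Epicardial-gated cells were compared with fibroblast-gated cells. Of the 10 genes 8 were called, against 56.8% of 11038 genes (28.2% higher and 28.6% lower in the epicardial class). *Igf2* (0.61), *Igf1* (0.55), *Igf1r* (0.29), *Igfbp2* (3.43), *Igfbp3* (1.55) and *Igfbp5* (1.86) were higher in the epicardial class, while *Igf2r* (-0.54) and *Igfbp7* (-1.26) were lower. The *Igfbp2* difference was 4.03 without control replicate 1. The *Igf1* call was lost without eKO replicate 1 (0.44, adjusted p = 0.0642), with DESeq2 and under the stricter gate. With so many genes called in each comparison of levels, the number called among the members is a description of how the classes differ.

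Within the myocardium the axis also differed between layers. Cells gated on compact zone markers such as *Hey2* were compared with cells gated on trabecular markers such as *Nppa*, and 8 of the 9 members tested were called, against 49.9% of 12647 genes (25% higher and 24.9% lower in compact cells). *Igf2r* stood at 381, 413, 394 and 326 in compact and at 838, 1028, 887 and 710 in trabecular cells, a difference of -1.25 (SE 0.05, edgeR adjusted p = 3.33e-15) with no overlap. *Igfbp2* went the other way, with 61.7, 80.1, 60.0 and 105 in compact against 18.4, 13.003, 21.999 and 37.5 in trabecular cells (1.67, SE 0.11, adjusted p = 2.68e-11). *Igf1* (0.64), *Insr* (0.28) and *Igf1r* (0.21) were called higher in compact cells and *Igfbp5* (-1.07), *Igfbp7* (-1.44) and *Igfbp4* (-0.46) higher in trabecular cells. The *Igf1* difference ran from 0.40 to 0.85 with 1 library left out at a time. The *Igfbp5* difference was -1.96 under the stricter gate. *Igf1r* was not called without eKO replicate 1 (0.15, adjusted p = 0.0674) or eKO replicate 2 (0.14, adjusted p = 0.067), nor *Igfbp4* without eKO replicate 1 (-0.39, adjusted p = 0.0712) or eKO replicate 2 (-0.27, adjusted p = 0.293), with DESeq2 (adjusted p = 0.277) or under the stricter gate (adjusted p = 0.057). *Igf2* did not pass (335 ± 36.5 against 302 ± 24.7 CPM). *Igfbp3* had too few UMIs in either layer to be tested.

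The share of all UMIs of a gene that came from each class combined its level with the number and depth of the cells. Cardiomyocytes were 42.6% ± 3.62 of kept cells (SD, n = 4) and held 78.6% ± 6.11 of *Igfbp2*, 68.0% ± 4.59 of *Insr*, 64.5% ± 4.35 of *Igf1r* and 58.1% ± 3.04 of *Igf2r*. They also held 34.8% ± 4.18 of *Igf2*, although their level was the lowest but 1, ahead of the 21.5% ± 1.05 held by mEndo-gated cells, which were 8.44% ± 0.81 of cells. For *Igf1* cushion mesenchyme held 20.7% ± 5.79, mEndo 20.4% ± 4.32 and cardiomyocytes 12.1% ± 3.26, and 28.8% ± 4.19 lay in no class. The cvEC class, 3.57% ± 0.41 of cells, held 67.9% ± 5.89 of *Igfbp3*. The mEndo class held 38.3% ± 3.52 of *Igfbp5* and 37.2% ± 1.80 of *Igfbp4*, and cushion mesenchyme held 34.2% ± 4.01 of *Igfbp7*. Between 8.91% (*Igfbp2*) and 32.9% (*Igfbp7*) of a gene's UMIs lay in kept cells outside every class. Dissociation and capture set how many cells of a type enter a library, so these shares describe the libraries and not the intact ventricle.

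**Figure D2:**
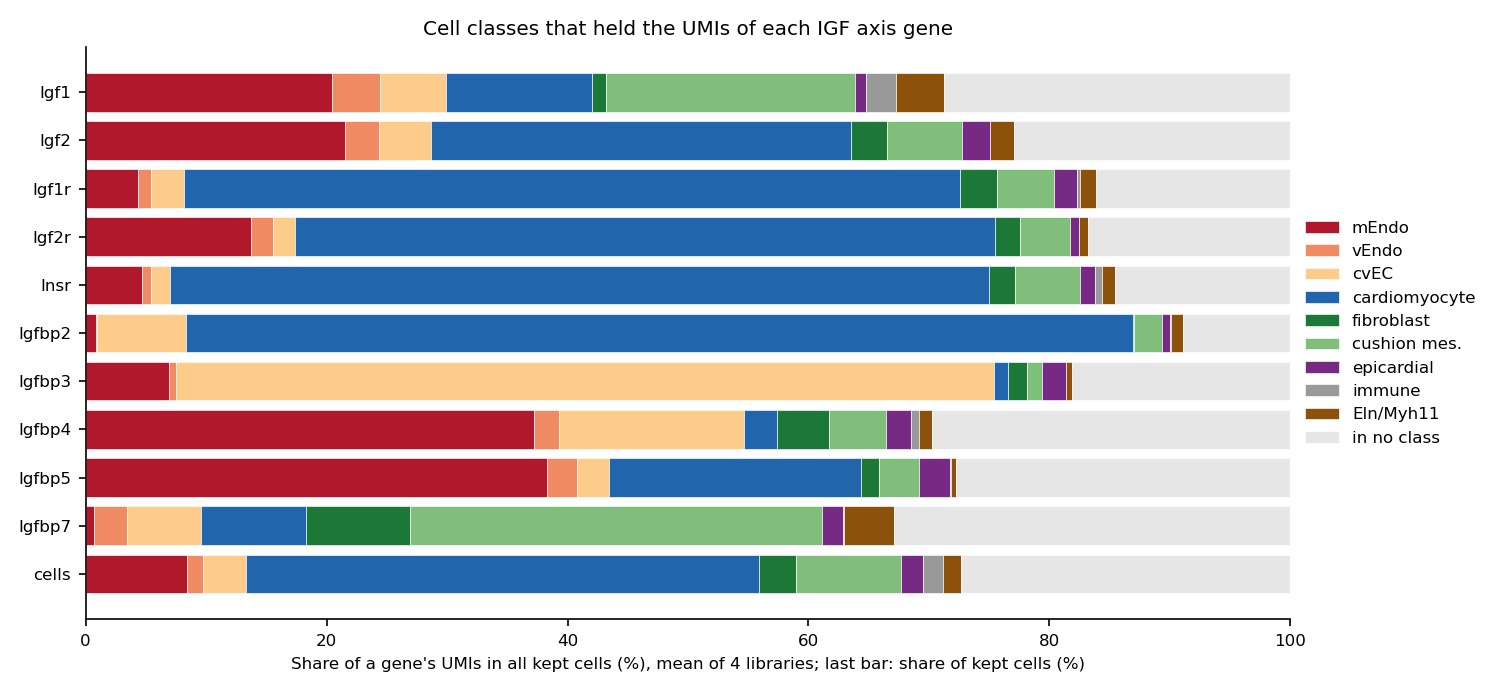
Share of each gene's UMIs in all kept cells that came from each class (x axis, percent, mean of 4 libraries), with the share of kept cells in the last bar and cells in no class in grey. Most of *Igfbp3* came from cvEC (67.9%) and most of the 3 receptors from cardiomyocytes (58.1% to 68.0%).

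The comparison of eKO with control asked whether the axis changed in the cells that lost *Ets1* and in the myocardium beside them. It was run in 7 classes with all genes tested, and in these 2 of the 10 genes were called, both of them binding proteins and both in cvEC-gated cells, where 90 of 11478 genes were called (0.784%). *Igfbp3* was lower, as were 0.305% of genes tested, and *Igfbp7* higher, as were 0.479%. No member was called in mEndo (2.29% of 12681 genes called), vEndo (0.325% of 9240), cardiomyocyte (0% of 16254), fibroblast (0% of 11146), cushion mesenchyme (0.0306% of 13067) or epicardial-gated cells (0.0299% of 10046). In cardiomyocytes edgeR called 0 genes, with 1805 at an unadjusted p under 0.05, and DESeq2 called 33. In fibroblasts edgeR also called 0, with 856 at an unadjusted p under 0.05, and DESeq2 called 1. In simulated counts a true log2 change of 1 was called for 133 of 200 genes in the cvEC comparison and for 142 of 200 in the mEndo comparison, and a true change of 0.5 for 6 and 0 of 200.

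*Igfbp3* in cvEC-gated cells stood at 390 and 329 CPM in the controls and at 194 and 201 in the eKO libraries, from 793 to 2240 UMIs. Both eKO libraries lay below both controls, with little spread between them. The log2 change was -0.78 (SE 0.15, edgeR adjusted p = 0.0435). It kept its sign in 10 of 10 alternatives (-0.91 to -0.66) and was called in 8, and it was not called without control replicate 1 (-0.66, adjusted p = 0.263) or under the stricter gate (-0.68, adjusted p = 0.0846).

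The share of cvEC-gated cells with an *Igfbp3* UMI after thinning to 2000 UMIs was 34.4% (95% exact binomial interval 29.8% to 39.2%) and 32.0% (25.9% to 38.6%) in the controls and 19.4% (15.3% to 24.2%) and 21.0% (17.7% to 24.6%) in the eKO libraries. The difference was -12.99 percentage points (exact permutation test over 6 splits, two-sided p = 0.333, the smallest this design allows). Without thinning the shares were 57.0%, 60.4%, 39.8% and 38.9%. Cardiomyocyte-gated cells, which should lack the gene, had it in 0.0366% to 0.0834% of thinned cells. Intervals of this kind cover counting error only.

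*Igfbp7* moved the other way in the same cells, from 34.7 and 24.8 in the controls to 98.0 and 66.0 in the eKO libraries, from 81 to 400 UMIs. The groups did not overlap, and eKO replicate 1 was the highest. The log2 change was 1.51 (SE 0.21, edgeR adjusted p = 0.00947), and it was called in 10 of 10 alternatives, with estimates from 1.21 to 1.80. Of thinned cvEC-gated cells 5.65% (3.62% to 8.36%) and 3.604% (1.57% to 6.98%) had an *Igfbp7* UMI in the controls, against 15.7% (12.0% to 20.2%) and 9.41% (7.13% to 12.1%) in the eKO libraries (difference 7.95 percentage points, exact permutation p = 0.333). Unthinned, the shares were 19.7%, 14.9%, 35.2% and 25.6%, and cardiomyocyte-gated cells, as background, had the gene in 0.613% to 1.25% of thinned cells. The antisense genes *Polr2b* and *Gm34648* overlap *Igfbp7*, and reads of overlapping genes may not be fully separated.

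Both changes were looked for in the arterial part of the class, 78, 44, 56 and 85 cells that passed a gate on genes such as *Gja4* and *Sox17*. There *Igfbp3* stood at 685 and 712 against 518 and 460 and *Igfbp7* at 69.9 and 64.0 against 255 and 168, again without overlap. How many genes did not overlap in this subset was not counted. In the whole cvEC class 31.5% of genes tested lay below both controls and 14.2% above. In the 178 venous-gated cells *Igfbp3* was 110, 55.7, 17.2 and 107 and *Igfbp7* 29.8, 0, 48.8 and 28.2, both with overlap. After thinning, 67.9% and 63.6% of arterial-gated cells in the controls had an *Igfbp3* UMI against 48.2% and 45.9% in the eKO libraries, and 7.69% and 6.82% had an *Igfbp7* UMI against 26.8% and 23.5%. The exact permutation p was 0.333 for both. Unthinned, the *Igfbp3* shares were 83.3%, 86.4%, 75% and 70.6% and the *Igfbp7* shares 32.1%, 25.0%, 55.4% and 51.8%.

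The make-up of the cvEC class moved with these results in part. The 6 arterial markers summed to 522 and 488 CPM over the whole class in the controls and 403 and 436 in the eKO libraries, and the 4 venous markers to 425 and 398 against 336 and 316. Arterial-gated cells were 78 of 407, 44 of 222, 56 of 324 and 85 of 563 cvEC-gated cells. Of the classes richest in *Igfbp7*, the 8 cushion mesenchyme markers summed to 41.5 to 49.6 in the controls and 47.8 to 48.3 in the eKO libraries, the 6 general mesenchyme markers to 55.1 to 76.2 against 69.0 to 77.0, and the 6 mural markers to 13.4 and 124 against 11.8 and 9.64. The 5 fibroblast markers, all with UMIs in every library, summed to 174 and 208 against 265 and 189. The cushion, mesenchyme and fibroblast sums overlapped between the groups and the mural sum was lower in the eKO libraries, whereas the arterial and venous sums were lower there without overlap. The part of the arterial and venous make-up in the *Igfbp3* and *Igfbp7* results was not tested.

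**Figure D3:**
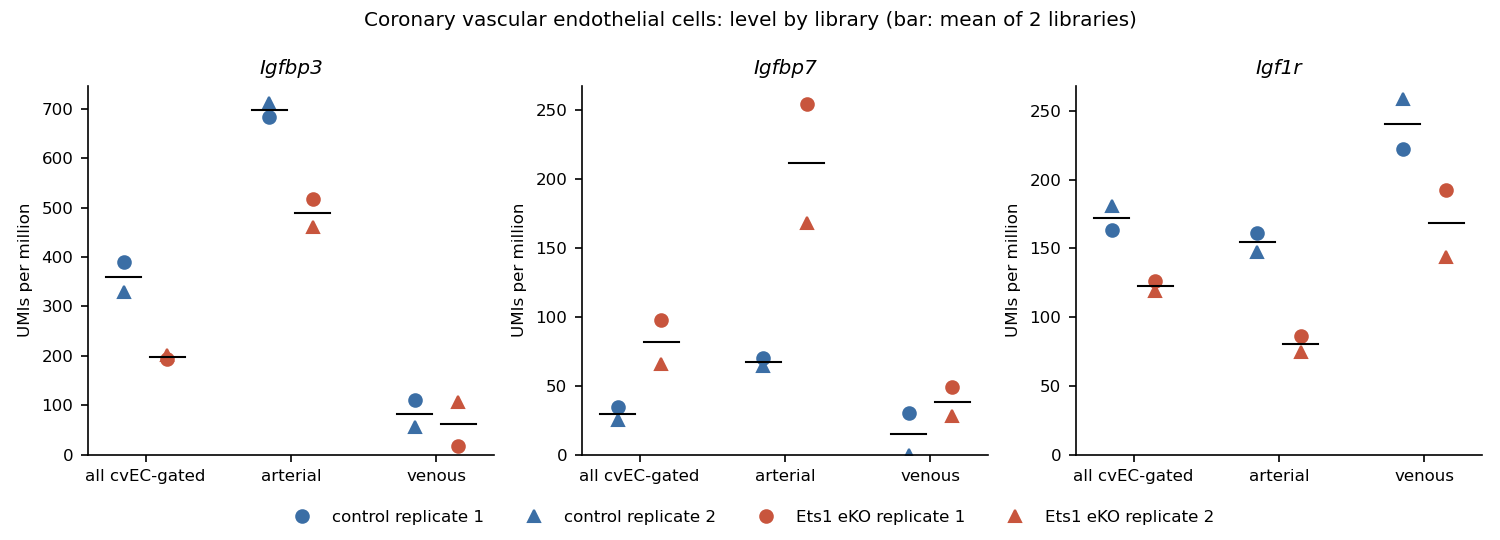
*Igfbp3*, *Igfbp7* and *Igf1r* (y axes, CPM) in all cvEC-gated cells and in their arterial-gated and venous-gated subsets; points are libraries (blue control, red eKO, shape by replicate) and bars the means of 2 libraries. The eKO points lie below the controls for *Igfbp3* and above them for *Igfbp7* in all cvEC-gated and in arterial-gated cells, and overlap for both genes in venous-gated cells.

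Whether the eKO effect on *Igfbp3* differed between endocardium and coronary endothelium was tested directly. In mEndo-gated cells *Igfbp3* stood at 13.5 and 15.9 in the controls and 18.3 and 21.4 in the eKO libraries. The eKO effect in mEndo minus that in cvEC was 1.31 on the log2 scale (SE 0.17, edgeR adjusted p = 0.000134) in an interaction model in which 1.35% of 12998 genes were called (0.585% positive and 0.762% negative), and it was called in 7 of 7 alternatives (1.01 to 1.54). The same model called *Igf2* (-0.44, SE 0.10, adjusted p = 0.0286). *Igf2* in cvEC-gated cells was 514 and 362 in the controls and 606 and 517 in the eKO libraries, and the within-class change of 0.44 (SE 0.19, adjusted p = 0.347) was not called. That change ran from 0.20 to 0.71 with 1 library left out at a time. The difference was called in 4 of 7 alternatives and not without control replicate 2 (-0.28, adjusted p = 0.0898), eKO replicate 1 (-0.45, adjusted p = 0.0963) or eKO replicate 2 (-0.48, adjusted p = 0.311). For *Igf1r* (-0.09, adjusted p = 0.834), *Insr* (0.48, adjusted p = 0.318) and *Igfbp5* (-0.39, adjusted p = 0.184) a difference between the 2 classes was not called. With 1 library left out at a time, the estimate ran from -0.17 to -0.047 for *Igf1r* and from 0.22 to 0.80 for *Insr*. That of *Igfbp5* was called in 2 of 7 alternatives, without control replicate 1 (-0.69, adjusted p = 0.00982) and without the filter on low counts (-0.41, adjusted p = 0.00687), and was -0.17 without control replicate 2.

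For the ligands, no change within a class was called. *Igf1* in vEndo-gated cells was 405 and 370 in the controls and 290 and 288 in the eKO libraries, without overlap (-0.40, SE 0.16, edgeR adjusted p = 0.445), and in mEndo-gated cells 256 and 247 against 286 and 258, again without overlap but in the other direction (0.16, SE 0.12, adjusted p = 0.517). The difference between these 2 effects was called (0.57, SE 0.14, adjusted p = 0.0193) in a model that called 1.35% of 12444 genes (0.86% positive and 0.49% negative). It was called in 3 of 7 alternatives, and was lost without control replicate 1 (0.47, adjusted p = 0.215), eKO replicate 1 (0.51, adjusted p = 0.294) or eKO replicate 2 (0.62, adjusted p = 0.0852) and under the stricter gate (0.58, adjusted p = 0.378). In cvEC-gated cells *Igf1* stood at 92.5 and 89.1 against 118 and 105 (0.37, SE 0.14, adjusted p = 0.291). *Igf2* in vEndo-gated cells, at 1607 and 1474 against 1254 and 1344, was not called (-0.22, SE 0.16, adjusted p = 0.759). In cardiomyocyte-gated cells the groups overlapped for *Igf2* (324, 297, 378 and 315) and for *Igf1* (17.3, 19.5, 20.7 and 16.0).

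The 2 signalling receptors had lower values in the eKO libraries in most classes and were not called in any. Values below both controls in both eKO libraries were common among all genes tested: 31.3% of genes in mEndo, 22.1% in vEndo, 31.5% in cvEC, 37.8% in cardiomyocytes, 29.3% in fibroblasts, 31.4% in cushion mesenchyme and 25.9% in epicardial-gated cells. The shares that lay above both controls were 19.8%, 17.4%, 14.2%, 11.3%, 11.9%, 13.4% and 12.6% in the same order. Of the 10 members, 5, 4, 3, 2, 2, 5 and 5 lay below and 3, 1, 3, 0, 2, 1 and 0 above. These counts cover all members, whereas the shares cover genes tested, among which were 8 members in vEndo and 9 in fibroblasts. The member above both controls in vEndo was *Igfbp3*, at 7 to 12 UMIs. The calls themselves divided into 1.08% higher and 1.21% lower in mEndo and 0.00765% higher and 0.023% lower in cushion mesenchyme. For *Igf1r* both eKO libraries lay below both controls in 6 of the 7 classes compared, with overlap in fibroblasts only, and for *Insr* in 6 of 7, with overlap in epicardial-gated cells only. Among genes spanning at least 100 kb, to which both receptors belong, the same was true of 34.6% (vEndo) to 67.1% (cardiomyocytes). In mEndo-gated cells *Igf1r* stood at 185 and 198 against 127 and 132 (-0.52, SE 0.12, edgeR adjusted p = 0.0613). It was called there in 3 of 10 alternatives, with adjusted p from 0.00985 to 0.357. In vEndo-gated cells it stood at 260 and 340 against 181 and 195 (-0.64, SE 0.17, adjusted p = 0.193), and in cvEC-gated cells at 163 and 181 against 126 and 119 (-0.40, SE 0.14, adjusted p = 0.272).

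In cardiomyocyte-gated cells, which do not derive from the *Tie2*Cre lineage, *Igf1r* stood at 306 and 360 in the controls and 241 and 224 in the eKO libraries (-0.40, SE 0.14, edgeR adjusted p = 0.438). In trabecular-gated cells the values were 295 and 336 against 191 and 176, and in compact-gated cells 314 and 361 against 260 and 245, without overlap in either layer. The share of all genes without overlap was not counted within the layers. In the whole cardiomyocyte class 37.8% of genes tested, and 67.1% of those spanning at least 100 kb, lay below both controls. Cushion mesenchyme (-0.42, SE 0.14, adjusted p = 0.337), epicardial-gated (-0.24, SE 0.17, adjusted p = 0.785) and fibroblast-gated cells (-0.19, SE 0.18, adjusted p = 0.792) had estimates of the same sign, and that of fibroblasts became 0.077 without control replicate 2. With 1 library left out at a time, the estimate ran from -0.54 to -0.26 in cushion mesenchyme and from -0.38 to -0.095 in epicardial-gated cells. The effect in mEndo minus that in cardiomyocytes was -0.11 (SE 0.11, adjusted p = 0.802), so a difference between the targeted and the untargeted class was not shown for *Igf1r*, whereas for *Ets1* it was -1.82 (SE 0.15, adjusted p = 0.000208).

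The share of thinned cells with an *Igf1r* UMI was 41.6% and 46.4% in control and 34.5% and 34.0% in eKO cardiomyocytes (difference -9.76 percentage points), and 26.2% and 30.8% against 22.1% and 22.8% in mEndo-gated cells (-5.99 points). In cvEC-gated cells it was 24.6% and 29.3% against 23.8% and 18.3% (-5.89 points). The exact permutation p was 0.333 in each. Unthinned, the shares were 88.2%, 91.1%, 86.0% and 74.9% in cardiomyocytes, 64.6%, 69.7%, 54.3% and 42.4% in mEndo and 72.0%, 79.3%, 68.5% and 51.9% in cvEC-gated cells. Immune-gated cells had the gene in 9.44% to 17.2% of thinned cells.

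*Insr* had its most negative estimates in cvEC and vEndo. In cvEC-gated cells it stood at 33.1 and 42.9 against 23.0 and 17.2 (-0.82, SE 0.20, edgeR adjusted p = 0.103), and 4 of 10 alternatives called it (adjusted p from 0.00191 to 0.404). In vEndo-gated cells it stood at 72.0 and 68.3 against 41.2 and 39.8 (-0.76, SE 0.22, adjusted p = 0.249), and in mEndo-gated cells at 68.1 and 57.1 against 50.4 and 45.0 (-0.35, SE 0.14, adjusted p = 0.219). The other estimates were those of cardiomyocytes (-0.18, SE 0.13, adjusted p = 0.543), fibroblasts (-0.37, SE 0.18, adjusted p = 0.669), cushion mesenchyme (-0.20, SE 0.12, adjusted p = 0.571) and epicardial-gated cells (-0.10, SE 0.19, adjusted p = 0.926). With 1 library left out at a time, the *Insr* estimate ran from -0.43 to -0.22 in mEndo. It ran from -0.35 to -0.035 in cardiomyocytes and from -0.57 to -0.084 in fibroblasts.

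The estimates were set beside the genomic span of the genes. *Igf1r* spans chr7:67952827-68233668 on the plus strand (281 kb) and *Insr* chr8:3122061-3279617 on the minus strand (158 kb) in the GRCm38 annotation, with 21 and 23 exon blocks. Among all genes tested, those spanning at least 100 kb had a median log2 change of -0.15 in mEndo, -0.10 in vEndo, -0.15 in cvEC, -0.18 in cardiomyocytes, -0.15 in fibroblasts, -0.13 in cushion mesenchyme and -0.12 in epicardial-gated cells, while shorter genes had medians of 0.03 to 0.05. In mEndo 11.6% of the long genes had a lower estimate than *Igf1r*, in vEndo 7.15%, in cvEC 15.8% and in cardiomyocytes 14.5%. It was 16.5% in cushion mesenchyme, 31.3% in epicardial-gated cells and 42.9% in fibroblasts. For *Insr* the share was 3.04% in cvEC, 4.70% in vEndo and 50.3% in cardiomyocytes. The part of gene span in the receptor values was not tested.

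**Figure D4:**
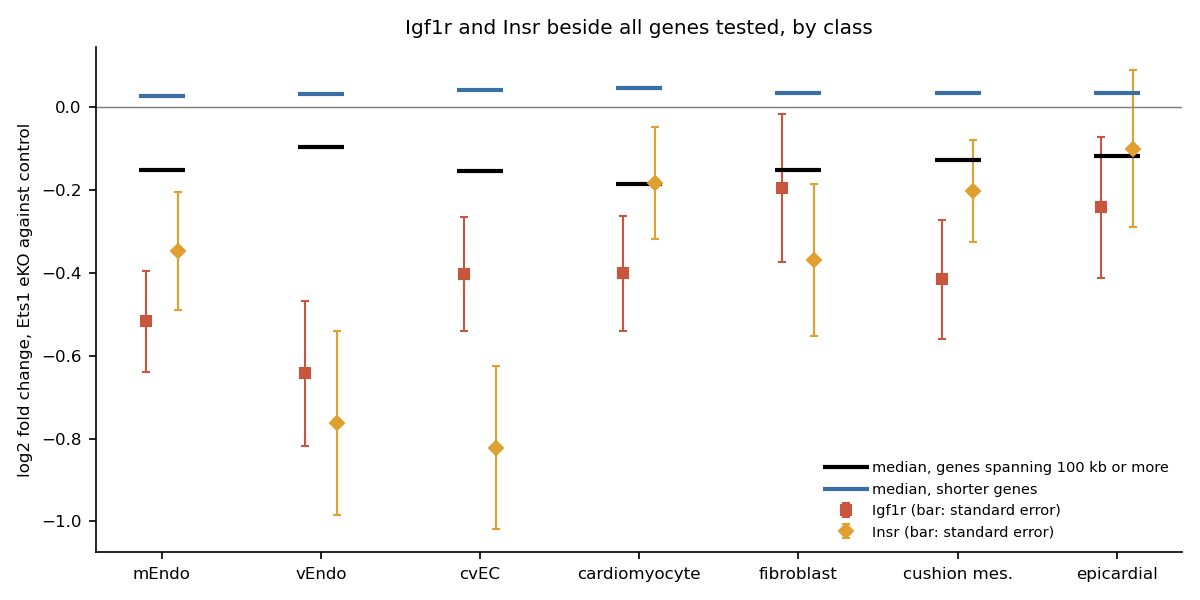
Log2 fold change of *Igf1r* (squares) and *Insr* (diamonds) between eKO and control with standard errors (y axis) in 7 classes (x axis), beside the medians of all tested genes that span at least 100 kb (black bars) and of shorter genes (blue bars). The black bars lie between -0.18 and -0.10 and the blue bars between 0.03 and 0.05. *Igf1r* lies below the black bar in every class, and *Insr* in every class but cardiomyocytes and epicardial-gated cells.

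*Igf2r* was not called in any class. In mEndo-gated cells the eKO libraries, at 1036 and 897, lay below the controls, at 1086 and 1093, by a small margin (-0.13, SE 0.14, edgeR adjusted p = 0.673). That estimate ran from -0.22 to -0.040 with 1 library left out at a time. In cvEC-gated (202, 194, 223 and 187) and cardiomyocyte-gated cells (513, 573, 525 and 467) the groups overlapped, as they did in vEndo-gated cells. *Igf2r* spans chr17:12682406-12769664 on the minus strand (87.3 kb).

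The other binding proteins varied between libraries without being called. *Igfbp5* in mEndo-gated cells was 1895 and 1861 against 1552 and 1143 (-0.43, SE 0.17, edgeR adjusted p = 0.205), with eKO replicate 2 farthest below, and the estimate was -0.66 (adjusted p = 0.00945) without eKO replicate 1 and -0.24 (adjusted p = 0.378) without eKO replicate 2. It was called in 2 of 10 alternatives, the other being that without the filter on low counts (adjusted p = 0.034). In cushion mesenchyme *Igfbp5* was 150 and 268 against 103 and 93.2 (-1.01, SE 0.23, adjusted p = 0.164). There control replicate 2 stood far above the rest, the estimate without it was -0.55 (adjusted p = 0.526), and 4 of 10 alternatives called the change. In epicardial-gated cells *Igfbp5* was 638 and 853 against 369 and 413 (-0.86, SE 0.18, adjusted p = 0.274; called in 3 of 10 alternatives). The thinned share of mEndo-gated cells with an *Igfbp5* UMI was 65.3%, 69.6%, 66.3% and 58.9% with overlap (exact permutation p = 0.667). Unthinned it was 78.4%, 82.4%, 78.3% and 71.5% and at 1000 UMIs 57.0%, 56.9%, 55.2% and 47.2%, without overlap in either (exact permutation p = 0.333).

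*Igfbp2* gave different signs in endocardium and myocardium. In mEndo-gated cells, with 11 to 34 UMIs per library, it was 4.70 and 6.06 against 1.78 and 3.08 (-1.07, SE 0.37, edgeR adjusted p = 0.161), and in cardiomyocyte-gated cells 33.8 and 40.4 against 39.3 and 62.5 (0.58, SE 0.22, adjusted p = 0.438). The difference of the 2 effects was called (-1.67, SE 0.26, adjusted p = 0.0128) in a model that called 0.704% of 16192 genes. It was called in 5 of 7 alternatives, and was lost by a small margin without control replicate 1 (adjusted p = 0.0506) or control replicate 2 (adjusted p = 0.0517). eKO replicate 2, the shallowest library, had the highest *Igfbp2* in cardiomyocytes. The estimate there was 0.18 (adjusted p = 0.56) without it and 0.90 (adjusted p = 0.00569) without eKO replicate 1, the only call among 10 alternatives. In cvEC-gated cells *Igfbp2* was 56.1 and 56.0 against 29.2 and 56.6 (-0.29, SE 0.25, adjusted p = 0.643). Its sign rested on eKO replicate 1, and it was -0.87 (adjusted p = 0.00361) without eKO replicate 2 and 0.11 without eKO replicate 1.

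Outside the coronary endothelium *Igfbp7* was not called. In mEndo-gated cells it was 2.35 and 3.03 against 4.85 and 5.86, from 17 to 40 UMIs (1.06, SE 0.33, edgeR adjusted p = 0.132). In fibroblasts it was 114 and 109 against 161 and 134 (0.48, SE 0.16, adjusted p = 0.488), without overlap, and in cushion mesenchyme 284 and 194 against 323 and 272 (0.40, SE 0.19, adjusted p = 0.49), with overlap. The cushion mesenchyme estimate ran from 0.14 to 0.73 with 1 library left out at a time. Within the mEndo gate the 5 fibroblast markers, each with UMIs in every library, summed to 20.9 and 24.6 CPM in the controls and 108 and 98.2 in the eKO libraries, and the 6 mesenchyme markers to 548 and 573 against 848 and 809. The part of these markers in the mEndo values was not tested. *Igfbp4* overlapped between groups in all 7 classes, as in cvEC-gated cells at 575, 543, 487 and 551.

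**Figure D5:**
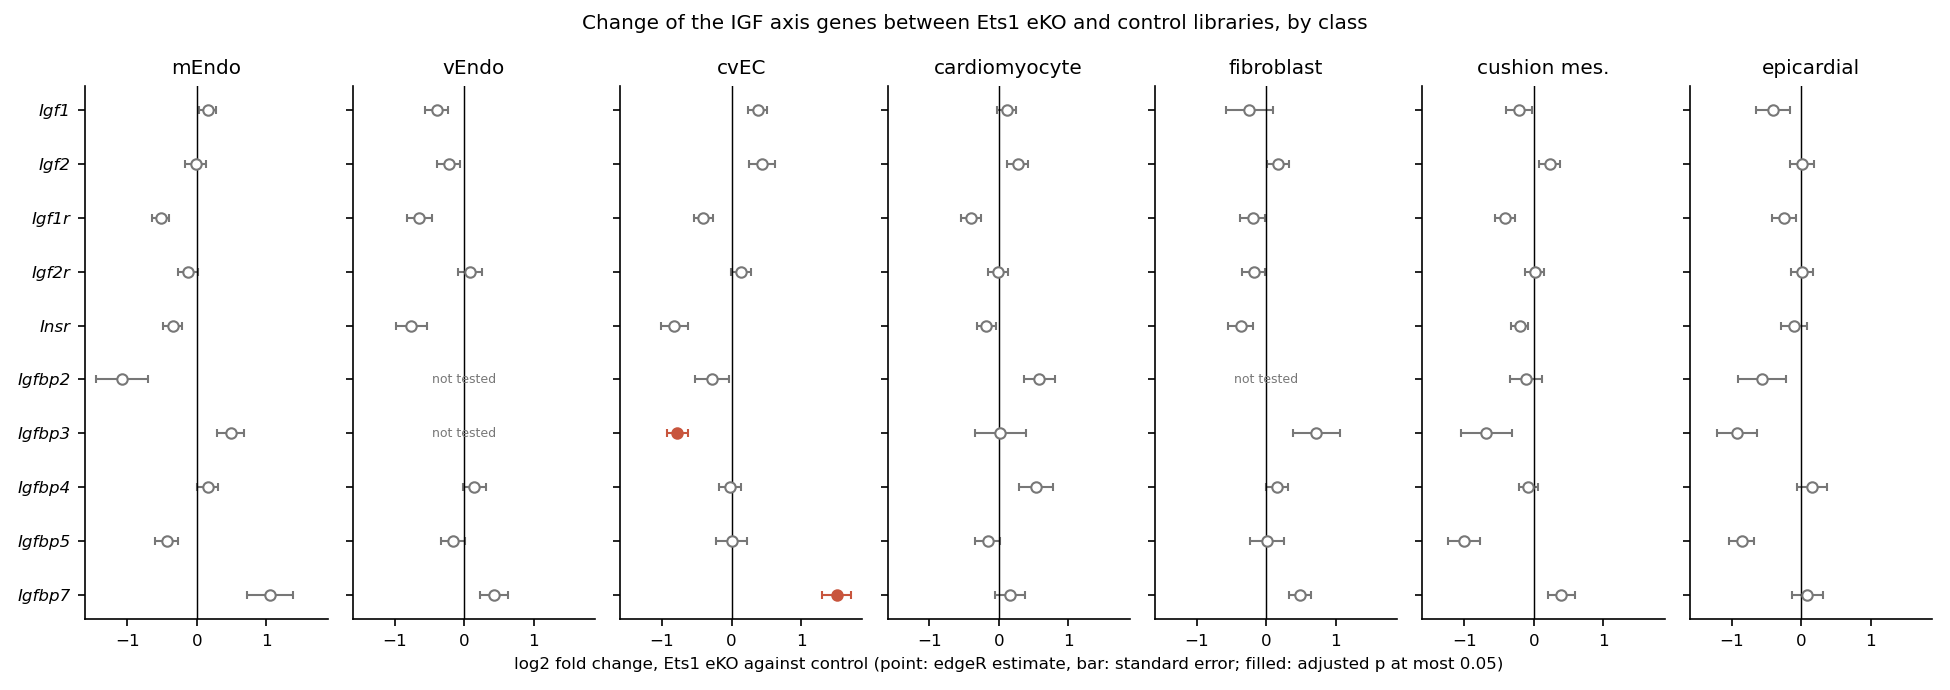
Log2 fold change between eKO and control for the 10 genes (x axis; points are edgeR estimates, bars standard errors; genes on the y axis) in 7 classes, with filled points for an adjusted p of at most 0.05. Only *Igfbp3* (-0.78) and *Igfbp7* (1.51) in cvEC are filled, and the open points of *Igf1r* and *Insr* lie left of 0 in every class.

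A list of 64 further genes of the pathway was tested in the same fits, in 5 groups: other IGF axis genes, proteases of binding proteins and their inhibitors, partners of *Igf2*, receptor substrates with PI3K, AKT and mTOR signalling, and FoxO factors with their targets. In mEndo-gated cells 51 were tested, 1 was called higher and 2 lower, against 2.29% of all genes. In vEndo-gated cells 1 of 46 was called, against 0.325% of all genes. None was called of 47 in cvEC (0.784% of all genes), 56 in cardiomyocytes (0%), 52 in fibroblasts (0%), 54 in cushion mesenchyme (0.0306%) or 51 in epicardial-gated cells (0.0299%). None of the 26 receptor substrates and signalling genes tested in mEndo-gated cells passed, with a median log2 change of -0.13 over the group beside 0.00 over all genes.

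*Foxo1*, the transcription factor that AKT excludes from the nucleus when IGF or insulin receptors are active, was lower in eKO mEndo-gated cells, at 165 and 143 against 251 and 257 in the controls (-0.68, SE 0.13, edgeR adjusted p = 0.0243). It was called in 8 of 10 alternatives and not without control replicate 1 (adjusted p = 0.16) or control replicate 2 (adjusted p = 0.177). In vEndo-gated cells *Foxo1* was 180, 225, 248 and 168 with overlap. The effect in mEndo minus that in vEndo was -0.73 (SE 0.16, edgeR adjusted p = 0.00503), lost without eKO replicate 1 (-0.51) and under the stricter gate (-0.82, adjusted p = 0.053). Both eKO libraries also lay below both controls in cvEC-gated cells (108 and 112 against 89.0 and 81.5) and cardiomyocytes (17.7 and 19.6 against 15.5 and 14.4). The same was true of fibroblasts (57.7 and 62.3 against 50.4 and 41.9) and cushion mesenchyme (53.3 and 65.5 against 44.3 and 37.6). In epicardial-gated cells the groups overlapped, and *Foxo1* was not called in any of these classes.

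The other 3 calls were proteases. *Mmp2*, a gelatinase that can cleave IGF binding proteins, was lower in eKO mEndo-gated cells, at 48.7 and 50.7 against 97.2 and 91.1 (-0.88, SE 0.13, edgeR adjusted p = 0.00712), and was not called without control replicate 1 (-0.84, adjusted p = 0.0674). *Adam12*, a membrane protease whose known substrates include IGFBP3 and IGFBP5, was higher there, at 63.7 and 69.5 against 25.0 and 42.3 (1.04, SE 0.22, adjusted p = 0.042). It was not called without control replicate 1 (0.69, adjusted p = 0.176) or eKO replicate 2 (0.97, adjusted p = 0.0624). *Adam12* was highest in fibroblast-gated cells (168 ± 19.01), the class whose markers had higher sums within the mEndo gate of the eKO libraries, and the part of such cells in the *Adam12* and *Mmp2* values was not tested. *Pappa*, which encodes the protease PAPP-A, was higher in vEndo-gated cells, at 59.8 and 43.4 against 16.9 and 16.8, from 18 to 58 UMIs (1.64, SE 0.29, adjusted p = 0.0296). DESeq2 did not call it (adjusted p = 0.427), nor did scaling by totals (adjusted p = 0.0514) or the stricter gate (adjusted p = 0.392).

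Other genes of the axis were scarce, apart from *Igfbpl1* and *Igf2os*. Over the 9 classes and 4 libraries *Igfbp1* had 10 UMIs, *Insrr* 5, *Ins1* 0, *Ins2* 49, *Igfals* 150 and *Igfbp6* 425, the last highest in epicardial-gated cells (60.7 CPM). *Igfbpl1* had 6194 and was highest in cardiomyocytes (27.8 CPM), and *Esm1* had 497 and was highest in cvEC-gated cells (26.8 CPM). *Igf2os*, antisense to *Igf2*, had 1963.

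The genes whose class pattern was most like that of each member were found by Pearson correlation of log2(CPM + 1) over the 9 class means among 7240 genes, leaving out members and gating genes. For *Igf2* they were *H19* (r = 0.986), the imprinted noncoding gene beside it, *Smtnl2* (0.985) and *Amotl1* (0.976). For *Igf1* they were *Rasa1* (0.965), *Slc39a1* (0.965) and *Gramd1a* (0.950). For *Igf1r* the closest was *Afap1* (0.982), for *Insr* *Stau2* (0.987), for *Igfbp4* *Shc1* (0.978), for *Igfbp5* *Lrrc42* (0.979) and for *Igfbp7* *Nop14* (0.965). The likeness was weakest for *Igfbp2* (*Plcb4*, 0.892) and *Igfbp3* (*Polr2e*, 0.942). The 9 points share the same 4 libraries, and the values are descriptions.

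The remaining members lie, in the same annotation, at chr10:87858265-87937042 on the plus strand (*Igf1*), chr7:142650766-142666816 on the minus strand (*Igf2*), chr1:72824503-72852474 on the plus strand (*Igfbp2*), chr1:72857932-72874884 on the minus strand (*Igfbp5*), chr11:7206086-7213923 on the minus strand (*Igfbp3*), chr11:99041244-99054392 on the plus strand (*Igfbp4*) and chr5:77349240-77408041 on the minus strand (*Igfbp7*). All 10 are protein coding genes, and *Igfbp2* and *Igfbp5* are neighbours on opposite strands. The counts are given per gene, so no exon or transcript form is resolved.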

How the data were processed

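The data were 10x Genomics 3′ (v3.1) single-cell libraries. The authors aligned and counted the reads and deposited raw UMI counts per gene and barcode; the submitters' processing notes name Cell Ranger 7.1.0, Seurat 4.3.0 and mm10, and whether counting used introns or strand is not given in the sources used here. Barcodes with 200 to 7000 genes, at most 20% mitochondrial, 35% ribosomal protein and 2% hemoglobin UMIs were kept. Cells with at least 2000 UMIs were gated by the summed share of marker UMIs, and no doublet caller was run. Cells past the limits of 2 lineage lists (1732) were counted but not removed as a group. The endothelial gates could admit cells past both the endothelial and the mesenchyme limits. The members, gene lists and marker lists were chosen with earlier results of these data known, and the gate minima were set after the files were seen.

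For each class the UMIs of a library were added up, and genotypes were compared by the quasi-likelihood test of edgeR 4.0.16 (TMM scaling, its filterByExpr, Benjamini-Hochberg over all genes tested, threshold 0.05; R 4.3.3). Standard errors are the log2 change divided by the root of F. Differences between classes were tested in a model with library terms. Shares of cells with a UMI used cells thinned to 2000 UMIs, with 95% Clopper-Pearson intervals and exact two-sided permutation tests over libraries. The tests were checked on simulated counts. The results were recomputed with a tighter gate, with cells of 1000 or more genes and no more than 10% mitochondrial UMIs, blocking on replicate number, leaving out single libraries, keeping genes of low count, scaling by library totals, and with DESeq2 1.42.0. Named genes were all members, every pathway gene called (up to 10 per class) and, per member, the genes most alike in class pattern among those with a mean of at least 20 CPM. Gene positions are from GENCODE vM21 (GRCm38), in which 32158 of 32285 gene IDs were found.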

Additional observations from a re-analysis of the deposited data

Results flagged for a closer look

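The effect of the knockout differed between 2 classes, by a test of the difference itself, for 4 of the genes, in models that called 1.35% (mEndo minus cvEC), 1.35% (mEndo minus vEndo) and 0.704% (mEndo minus cardiomyocytes) of all genes. On the log2 scale the effect in mEndo minus that in cvEC was 1.31 for *Igfbp3* and -0.44 for *Igf2*. The effect in mEndo minus that in vEndo was 0.57 for *Igf1*, and the effect in mEndo minus that in cardiomyocytes was -1.67 for *Igfbp2*. Of 7 alternatives, 7 called the difference for *Igfbp3*, 4 for *Igf2*, 3 for *Igf1* and 5 for *Igfbp2*.

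In other pairs of classes both eKO libraries lay above both controls in 1 class and below both in the other. These differences were not tested, and their size is the log2 ratio of the 2 ratios of mean CPM. Within single classes 11.3% to 19.8% of all genes tested lay above both controls and 22.1% to 37.8% below. How many genes did so in opposite directions in a pair of classes was not counted. For *Igf1* it was 0.72 between cvEC and vEndo. For *Igf2* it was 0.60 between cvEC and vEndo and 0.40 between cushion mesenchyme and vEndo.

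The remaining pairs concerned *Igfbp3*, which had higher values in the eKO libraries of mEndo, vEndo and fibroblast-gated cells and lower values in cvEC, cushion mesenchyme and epicardial-gated cells. For mEndo the size was 1.18 against cushion mesenchyme and 1.37 against epicardial-gated cells. For vEndo it was 1.38 against cvEC, 1.27 against cushion mesenchyme and 1.45 against epicardial-gated cells. For fibroblasts it was 1.46 against cvEC, 1.35 against cushion mesenchyme and 1.53 against epicardial-gated cells. Outside cvEC these values came from low levels of *Igfbp3*, between 2.71 and 42.5 CPM.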

How the results depend on the processing

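Over the alternatives 649 log2 changes kept their direction and side of the threshold, 41 were no longer called, 23 became called and 7 turned sign. The cause was not tested where a value moved. Those that turned sign were *Igfbp2* in cvEC without eKO replicate 1 (0.11; -0.87 to 0.11 over the libraries left out), *Igf1r* in fibroblasts without control replicate 2 (-0.41 to 0.077), *Insr* in epicardial-gated cells without control replicate 1 (-0.21 to 0.034), the *Igf1r* level in mEndo against cvEC with total count scaling (0.12) and, under the stricter gate, the *Igf2r* level in mEndo against vEndo (-0.025) and the *Igf1r* effect in mEndo minus cvEC (0.058) and minus cardiomyocytes (0.016). Total count scaling moved the median of all genes to -0.10 in cardiomyocytes.

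Without the filter on low counts the genes called were 1047 in mEndo (291 in the reported test), 130 in vEndo (30), 369 in cvEC (90), 125 in cardiomyocytes (0), 88 in fibroblasts (0), 431 in cushion mesenchyme (4), 42 in epicardial-gated cells (3), 328 for mEndo minus cvEC (175) and 510 for mEndo minus cardiomyocytes (114). In that setting alone *Igfbp2* (-1.07, edgeR adjusted p = 0.0442) and *Igfbp7* (1.05, adjusted p = 0.045) were called in mEndo and *Igf1r* (-0.68, adjusted p = 0.0293) in vEndo. DESeq2 called 16 in vEndo, 33 in cardiomyocytes, 1 in fibroblasts, 50 in cushion mesenchyme and 0 in epicardial-gated cells. Total count scaling gave 15 in vEndo, 1 in cardiomyocytes and 10 in cushion mesenchyme. The stricter gate gave 5 in vEndo, 8 in cushion mesenchyme, 7 in epicardial-gated cells and 98 for mEndo minus vEndo (168), and the stricter cell filter 0 in epicardial-gated cells. Leaving out 1 library at a time gave 106 to 850 in mEndo, 72 to 130 in vEndo, 162 to 819 in cvEC, 1 to 1800 in cardiomyocytes, 0 to 186 in fibroblasts, 10 to 219 in cushion mesenchyme, 25 to 81 in epicardial-gated cells, 81 to 209 for mEndo minus cvEC, 114 to 211 for mEndo minus vEndo and 73 to 247 for mEndo minus cardiomyocytes. The share of calls that were higher moved from 47.1% to 36.5% in mEndo, from 61.1% to 43.3% in cvEC, from 25.0% to 10.0% in cushion mesenchyme and from 50.5% to 63.0% in the level of mEndo against cvEC with total count scaling, and from 46.7% to 31.3% in vEndo with DESeq2. In mEndo it was 62.3% without control replicate 1, 62.9% without control replicate 2, 63.9% without eKO replicate 1 and 58.5% without eKO replicate 2, so that the side with more calls changed with each library left out. For mEndo minus cardiomyocytes it was 67.5%, and 42.1% without eKO replicate 1.

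With the replicate block the genes called were 883 in mEndo, 49 in vEndo, 281 in cvEC, 69 in cardiomyocytes, 57 in fibroblasts, 138 in cushion mesenchyme and 15 in epicardial-gated cells. The labels give no shared origin to libraries of the same number, and the within-group differences of the 2 groups correlated at -0.312 to -0.0384. With the replicate block *Igf1r* in mEndo had an adjusted p of 0.0283 and *Igfbp3* in cvEC one of 0.0172 (edgeR). The leave-one-out values of the shares of cells with a UMI were added after the data had been seen and are given as ranges of the difference in percentage points, since with 2 libraries a group no verdict on their stability can be drawn: in cvEC -14.2 to -11.8 for *Igfbp3*, 4.79 to 11.1 for *Igfbp7* and -8.63 to -3.16 for *Igf1r*, in arterial-gated cells -20.9 to -16.6 for *Igfbp3* and 16.3 to 19.5 for *Igfbp7*, in mEndo -8.28 to -3.69 for *Igf1r* and -8.48 to -1.14 for *Igfbp5*, and in cardiomyocytes -12.2 to -7.35 for *Igf1r*. Thinning depth moved several differences by more than the pooled SD of libraries within groups. Without thinning the differences were -19.3 points for *Igfbp3*, 13.1 for *Igfbp7* and -15.4 for *Igf1r* in cvEC, -12.1 for *Igfbp3* and 25.0 for *Igfbp7* in arterial-gated cells and -18.8 for *Igf1r* in mEndo. At 1000 UMIs they were -6.93 for *Igfbp3* in cvEC, -12.6 for *Igfbp3* and 7.80 for *Igfbp7* in arterial-gated cells and -6.65 for *Igf1r* in cardiomyocytes.

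With 2 libraries a group the exact permutation tests cannot give a p under 0.333. Each library left out leaves 1 sample in a group, which is assumed to vary like the others. *Igfbp2* and *Igfbp7* in mEndo and *Igfbp3* outside cvEC rest on few UMIs. Many cells lay within a narrow band around a gate's minimum (1641 for mEndo, 1496 for fibroblasts, 1006 for cushion mesenchyme and 843 for vEndo).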

Other observations

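The arterial and venous parts of the coronary endothelium differed in the ligands and in some of the binding proteins. This is given here as values because the cells are subsets of the cvEC class and were not tested. *Igf1* stood at 35.4, 49.2, 43.3 and 31.5 CPM in arterial-gated cells and at 192, 282, 295 and 263 in venous-gated cells, without overlap. *Igf2* was 754, 574, 903 and 862 in arterial-gated and 468, 308, 683 and 666 in venous-gated cells, higher in the arterial cells of each library. *Igfbp2* was 170, 149, 122 and 223 in arterial-gated and 11.9, 42.6, 11.5 and 19.8 in venous-gated cells, and *Igfbp4* 942, 703, 799 and 771 against 362, 357, 252 and 463. *Igfbp3* and *Igfbp7*, whose values are given above, were also higher in arterial-gated cells, without overlap between the subsets. *Igfbp5* was 55.0, 91.8, 56.6 and 57.0 against 210, 62.3, 17.2 and 339, with overlap and no common direction. *Igf1r* was 161 and 148 in control and 86.6 and 74.97 in eKO arterial-gated cells. In venous-gated cells it was 222 and 259 against 192 and 144. The groups did not overlap in either subset, and the share of all genes without overlap was not counted there. In the whole cvEC class 31.5% of genes tested, and 51.8% of those spanning at least 100 kb, lay below both controls. With 25 to 85 cells per library in these subsets, the values of low genes rest on few molecules.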
